A study of Mus musculus with 3 samples.

Results

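Regulators of the growing hair matrix were examined in back skin from 3 groups of mice, namely interleukin-10 knockout mice fed 8% pESM (KOE), knockout mice on the control diet (KO) and wild-type mice (WT). The set holds 10 genes of 18193 that the arrays measured under a single gene name, namely Hoxc13, Foxn1, Msx2, Msx1, Dlx3, Lef1, Shh, Sostdc1, Gata3 and Ovol1. The genes were taken by symbol, with every probe set that the platform annotation gives them, which makes 18 probe sets. Hoxc13 and Gata3 have 1 probe set, and the other 8 genes have 2. The KOE group (6 mice) received pESM, a powder of eggshell membrane, in an AIN-93-based diet, while the KO group (7 mice) and the WT group (5 mice) received the AIN-93-based diet alone. All mice were male, started the diets at 4 weeks of age and stayed on them for 28 weeks. KO and KOE mice lack interleukin-10 in every tissue, and per the methods they were homozygotes of the second generation of a cross of B6.129P2-IL-10<tm1Cgn>/J with C57BL/6J, whereas the WT mice were C57BL/6J. The skin was freed of dermal white adipose tissue, RNA was pooled within each group, and each pool was hybridized to 1 array. The sources used here do not name the mice behind each pool.

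The hair matrix is the pool of dividing cells at the base of a follicle in its growth phase, from which the hair shaft and the inner root sheath arise. Matrix cells receive Wnt, BMP and hedgehog signals, and a layered set of transcription factors then switches on the keratins of each lineage. Hoxc13 and Foxn1 drive hair shaft genes, and mice without Foxn1 are nude. Msx2, Msx1 and Dlx3 are homeodomain factors that act downstream of BMP signals, and Lef1 carries the Wnt signal to its target genes. Shh is the secreted hedgehog ligand of the matrix, and Sostdc1 is a secreted antagonist of BMP and Wnt signaling. Gata3 directs the inner root sheath, and Ovol1 is a zinc finger factor that limits proliferation. Gata3, Ovol1 and Dlx3 are also expressed in the epidermis between follicles, and Gata3 and Lef1 in T cells.

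All values given are linear signal intensities. The probe set with the highest mean over the 3 arrays stood for its gene, which was called higher or lower when the ratio of 2 arrays reached 1.5 in either direction and the signal was at least 40 in at least 1 of them. Because each group has a single array, differences have no replicate check, no test across mice was possible, and every direction describes the pools. The 2 strongest probe sets of a gene served as the only measure of spread. The pair was compared in the 6665 genes whose weaker probe set of the 2 had a mean signal of at least 40. Within the pair, log2 fold changes for KO vs. WT differed by a median of 0.24 and a 95th percentile of 1.19. For KOE vs. KO they differed by 0.20 and 1.02. Most epidermal markers were strong on all 3 arrays. Krt14, a keratin of basal keratinocytes, had 22650 in KOE, 21861 in KO and 20926 in WT. The exception was Krt2, which was weak with 105 in KOE, 84.3 in KO and 131 in WT. Il10 itself had a signal of 401 in KOE, 679.9 in KO and 17.0 in WT, and whether its probe set lies outside the altered part of the gene was not tested, so this signal checks no label. As deposited, 42.9% of the genes called in KO vs. WT were higher, and 72.4% were once the arrays were scaled to a common median, which moved the median log2 fold change of all genes to 0.28, against 0.01. For KOE vs. KO the shares were 67.1% and 47.1%, and for KOE vs. WT 54.3% and 66.6%.

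The windows before the start site are shown for Msx2 and Foxn1, which were lower in the KO pool, and for Gata3, which was not. They hold 250 bases each, are written 5′ to 3′ on the strand of the gene, and come from the RefSeq promoter table of build GRCm38.p6, in which 5 of the 10 genes have an entry. Capitals mark TAATTN, the core read by homeodomain proteins such as Msx and Dlx, and GACGC, the core read by Foxn1, on either strand. The Msx2 window is chr13:53472781-53473030, the Foxn1 window is chr11:78386609-78386858 and the Gata3 window is chr2:9878601-9878850, all on the minus strand, and the start sites used for Foxn1 and Gata3 lie inside the annotated gene spans, so that the Foxn1 window overlaps its gene in part and the Gata3 window wholly.
Msx2: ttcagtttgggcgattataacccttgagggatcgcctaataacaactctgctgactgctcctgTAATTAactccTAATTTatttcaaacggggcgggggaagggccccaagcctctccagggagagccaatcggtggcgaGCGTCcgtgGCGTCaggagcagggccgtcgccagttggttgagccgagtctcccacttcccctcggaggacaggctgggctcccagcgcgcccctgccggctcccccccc
Foxn1: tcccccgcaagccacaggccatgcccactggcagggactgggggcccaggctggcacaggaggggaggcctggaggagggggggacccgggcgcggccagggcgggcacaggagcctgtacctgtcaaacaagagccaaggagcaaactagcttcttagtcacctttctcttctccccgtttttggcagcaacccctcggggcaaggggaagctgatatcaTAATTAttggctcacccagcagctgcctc
Gata3: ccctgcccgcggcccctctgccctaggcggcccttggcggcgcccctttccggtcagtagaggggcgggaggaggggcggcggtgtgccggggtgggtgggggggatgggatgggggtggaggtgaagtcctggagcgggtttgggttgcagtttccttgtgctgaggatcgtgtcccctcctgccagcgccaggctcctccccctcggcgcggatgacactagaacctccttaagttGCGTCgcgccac
The Msx2 window held TAATTA 187 bases and TAATTT 176 bases before the start site, and GACGC on the opposite strand 110 and 101 bases before it. The Foxn1 window held TAATTA 29 bases before the start site. The Gata3 window held no TAATTN and 1 GACGC on the opposite strand, 12 bases before the start site. Of 32851 windows of this length, 24.9% held TAATTN and 22.6% held GACGC. The search also covered TATAAA (12.4% of windows), CTTTGA of LEF1 and TCF proteins (13.8%), AGATAA of GATA proteins (9.99%) and TGGGTGGTC of GLI proteins (0.225%), and none of these letters stood in the 3 windows shown. Of the other genes with an entry, Msx1 held no match. Lef1 has 4 windows, of which 1 held CTTTGA in 2 places together with TATAAA and TAATTN. Another 2, which overlap, held GACGC at the same genomic site. A match in letters is a description and no evidence of binding.

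In KO skin compared with WT skin, 7 of the 10 matrix regulators were lower and none was higher, where 14.5% and 10.9% of all 14495 genes that reached the signal limit were lower and higher. The 7 genes were Hoxc13, Foxn1, Msx2, Dlx3, Lef1, Shh and Msx1. At the stronger probe set, their signals in KO were 2.43% to 22.1% of those in WT, with a median of 15.7%. Their weaker probe sets, which Hoxc13 lacks, gave 10.3% (Shh) to 80.9% (Msx1). Gata3, Sostdc1 and Ovol1 were not called. Of the 18 probe sets, 13 were lower and none was higher, against 20.2% and 10.6% of all probe sets. The median log2 fold change of the 10 genes was −2.44, beside 0.01 over all genes. In bulk skin, fewer matrix cells and less RNA per cell cannot be told apart, and the sources used here do not state the stage of the hair cycle in each pool.

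**Figure D1:**
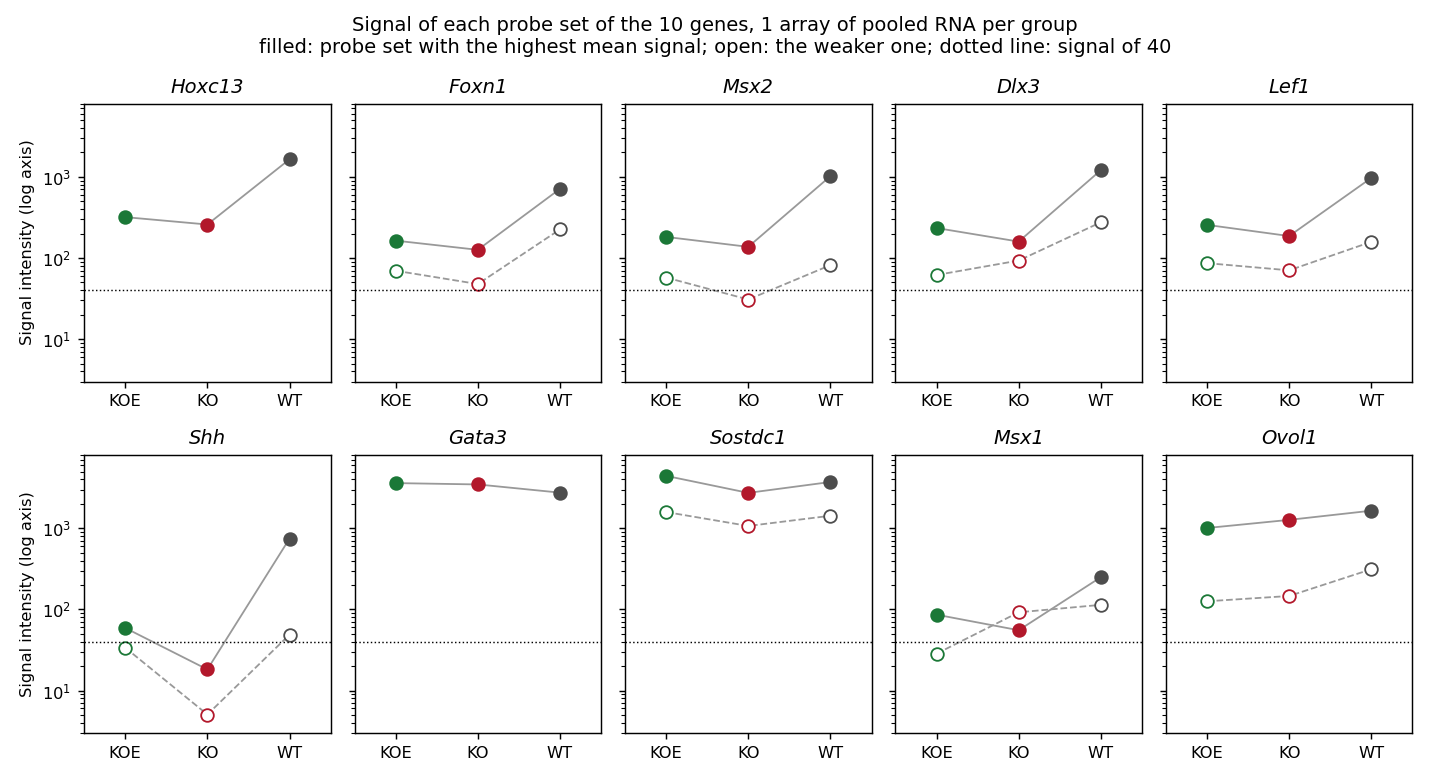
Signal intensity (log axis) of every probe set of the 10 genes on the KOE, KO and WT arrays, 1 array of pooled RNA per group, with no error bars because there are no replicates. Filled points are the stronger probe set and open points the weaker one, lines join the values of 1 probe set, and the dotted line is the signal limit of 40. For Hoxc13, Foxn1, Msx2, Dlx3, Lef1 and Shh the stronger probe sets in KOE and KO lie far below WT, whereas those of Gata3, Sostdc1 and Ovol1 differ far less. Of these, Sostdc1 was called higher in KOE vs. KO and Ovol1 lower in KOE vs. WT.

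Factors of the hair shaft lineage were several-fold lower in KO. Gene positions are those of RefSeq on GRCm38.p6. Hoxc13 (chr15:102921131-102928814) reached 259 in KO and 1650.2 in WT, which is 6.38-fold lower. Mice that lack Hoxc13 grow brittle hair. Foxn1 (chr11:78357577-78386783) had 126 in KO and 713 in WT at its stronger probe set. The weaker probe set had 47.7 in KO and 225 in WT, so that the 2 ratios, 5.65-fold and 4.72-fold lower, were close to each other. These were the most similar pair among the 6 called genes that have 2 probe sets.

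The homeodomain factors downstream of BMP signals lay in the same direction. Msx2 (chr13:53466881-53472780) had 137 in KO and 1023 in WT, a 7.45-fold difference, and its weaker probe set had 30.8 in KO and 81.7 in WT, a 2.65-fold difference. Dlx3 (chr11:95120117-95125296) had 159 in KO and 1213 in WT, a 7.61-fold difference, and its weaker probe set gave a 2.97-fold difference, with 93.1 in KO and 276 in WT. Msx1 (chr5:37820491-37824585), a close relative of Msx2, had 55.4 in KO and 249.9 in WT at its stronger probe set, a 4.51-fold difference. Its weaker probe set had 92.1 in KO and 114 in WT, which was not called, and the stronger one has the suffix that marks probe sets able to read more than 1 transcript. The Msx1 call therefore rested on 1 probe set.

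The 2 signaling components of the matrix differed in size. Lef1 (chr3:131110297-131224357) had 186 in KO and 972 in WT, a 5.21-fold difference, and its weaker probe set had 70.5 in KO and 158 in WT, a 2.25-fold difference. Shh (chr5:28456840-28467101) showed the lowest ratio of the 10 genes, with 18.2 in KO and 748 in WT. That is 41.1-fold lower as deposited and 18.7-fold lower with signals under 40 set to 40, because the KO signal lay under the limit. The weaker Shh probe set had 5.06 in KO and 48.9 in WT, which is 9.67-fold lower as deposited and 1.22-fold lower, and not called, with the same floor. Of all genes that reached the limit, 0.600% had a lower ratio than Shh, and 1.57% to 2.59% had a lower ratio than the 6 other called genes.

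The 3 remaining genes were not called in KO at their stronger probe set. Gata3 (chr2:9857078-9887953) had 3472 in KO and 2751 in WT, a ratio of 1.26. Sostdc1 (chr12:36314169-36318452) had 2733 in KO and 3723 in WT, and its weaker probe set had 1068 in KO and 1427 in WT, so that both gave ratios of 0.73 to 0.75. Ovol1 (chr19:5549137-5560575) had 1270.4 in KO and 1648 in WT, which is 1.30-fold lower and was not called, but its weaker probe set had 146 in KO and 313 in WT and was called lower at 2.14-fold. After scaling to a common median the Gata3 ratio passed the limit, with a log2 fold change of 0.61, and it did not under quantile or cyclic loess normalization.

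In 5 of the 8 genes with 2 probe sets both were lower in KO, in 2 only 1 was (Msx1 and Ovol1), and in Sostdc1 neither was. All 8 pairs pointed the same way. The sizes agreed less. The log2 fold changes of the pair differed by 0.26 for Foxn1, against 1.49 for Msx2, 1.36 for Dlx3, 1.21 for Lef1, 2.09 for Shh and 1.87 for Msx1. The last 5 lie above the 95th percentile of 1.19 over the 6665 genes whose weaker probe set had a mean signal of at least 40. The weaker Shh probe set had a mean under 40, so Shh is not among those genes. Where the weaker probe set has a mean signal of 40 to 200, as it does for Msx2, Dlx3, Lef1, Msx1 and Foxn1, that percentile was 1.67 over 2696 genes, and among these 5 Msx1 lay above it.

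In KOE skin compared with KO skin, the stronger probe sets of 9 of the 10 genes gave ratios above 1, most of them small. Shh, Sostdc1 and Msx1 were called higher and none was called lower, where 10.9% and 5.33% of 14594 genes were called. Of the 18 probe sets, 4 were higher and 2 were lower, against 14.5% and 5.93% of all probe sets. The median log2 fold change of the 10 genes was 0.43, beside 0.03 over all genes, and 53.2% of genes that reached the limit had a ratio above 1. After scaling to a common median, 8 of the 10 ratios were above 1 and only Shh was called. The KO array enters both this comparison and the one with WT, so a deviation on it alone moves the 2 comparisons in opposite directions.

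Shh had 59.1 in KOE and 18.2 in KO, a 3.25-fold difference, which was 1.48-fold with signals under 40 set to 40 and then not called. Its weaker probe set had 33.8 in KOE and 5.06 in KO, both under the limit. Sostdc1 had 4431 in KOE and 2733 in KO, a 1.62-fold difference, and its weaker probe set had 1587 in KOE and 1068 in KO, a 1.49-fold difference just under the limit. The Sostdc1 signals are the only ones of the 3 that lay far above 40. Msx1 had 86.1 in KOE and 55.4 in KO at its stronger probe set, a 1.56-fold difference, while the weaker one went the other way with 28.4 in KOE and 92.1 in KO. The direction of Msx1 is therefore not settled.

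The hair shaft factors and Lef1 stayed under the fold limit. Hoxc13 had 319 in KOE and 259 in KO, a ratio of 1.23. Foxn1 had 164 in KOE and 126 in KO, with ratios of 1.30 and 1.46 at its 2 probe sets. Lef1 had 256 in KOE and 186 in KO, with ratios of 1.37 and 1.23. Foxn1 and Lef1 pointed the same way at both probe sets, while Hoxc13 has only 1. The log2 fold changes of these 3 genes, 0.29 to 0.55, were below the 95th percentile of 1.02 between probe sets. That percentile was 1.52 where the weaker probe set had a mean of 40 to 200, as for Foxn1 and Lef1. It measures the difference between 2 probe sets, not the error of a single fold change. Msx2 had 182 in KOE and 137 in KO, a ratio of 1.33, and its weaker probe set had 57.4 in KOE and 30.8 in KO and was called higher. Dlx3 had 234 in KOE and 159 in KO, a ratio of 1.47, but its weaker probe set had 61.7 in KOE and 93.1 in KO and was called lower at 1.51-fold. Gata3 was nearly equal, with 3608 in KOE and 3472 in KO. Ovol1, the exception in direction, had 1008 in KOE and 1270.4 in KO, and its weaker probe set had 126 in KOE and 146 in KO.

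**Figure D2:**
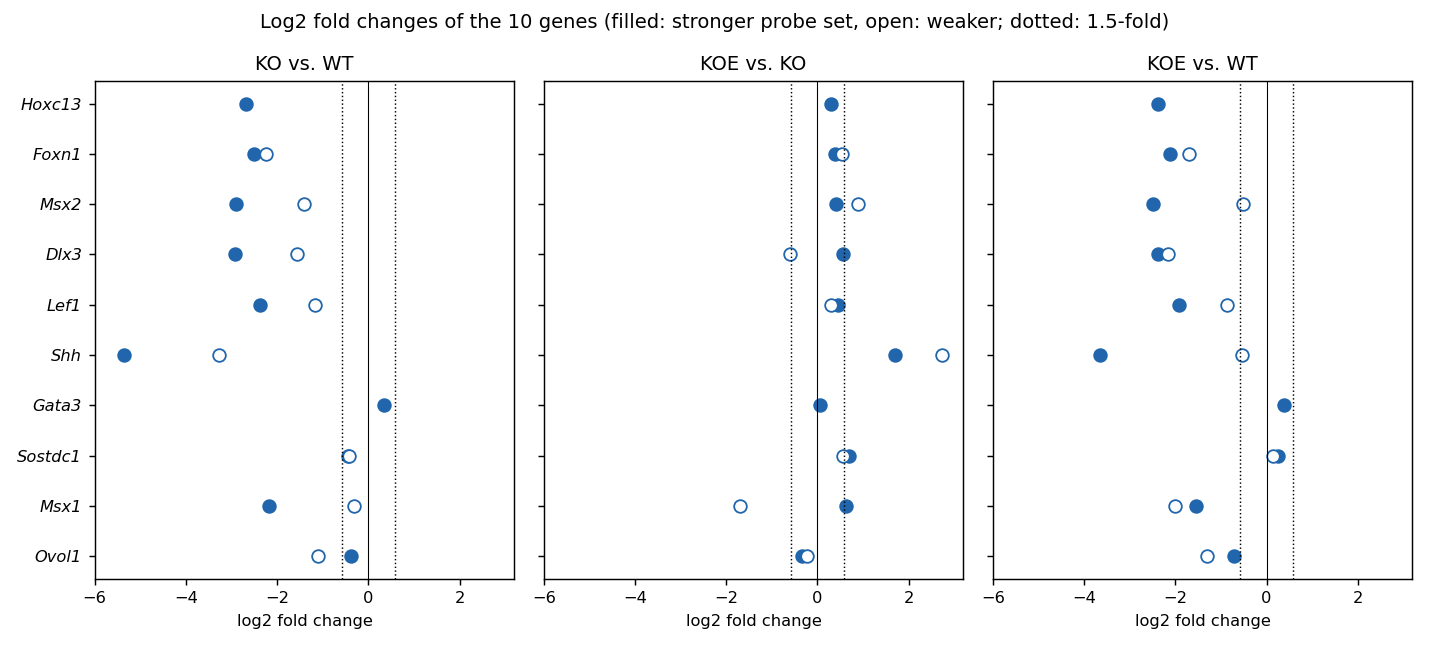
Log2 fold changes (horizontal axis) of the 10 genes in the comparisons KO vs. WT, KOE vs. KO, KOE vs. WT, with 1 pooled array in each group. Filled points are the stronger probe set, open points the weaker one, and dotted lines mark 1.5-fold. In KO vs. WT 7 filled points lie left of the lower line, in KOE vs. KO most lie between the lines, and the 2 points of Msx1 and of Dlx3 fall on opposite sides of 0.

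In KOE skin compared with WT skin, 8 of the 10 genes were lower and none was higher, where 10.4% and 12.4% of 14784 genes were. Ovol1 joined the 7 genes that were lower in KO. Of the 18 probe sets, 13 were lower and none was higher, against 14.5% and 13.2% of all probe sets. The median log2 fold change was −2.02, beside 0.06 over all genes. At the stronger probe set, the signals of the 7 genes in KOE were 7.90% to 34.4% of those in WT, with a median of 19.3%. Their weaker probe sets, which Hoxc13 lacks, gave 22.4% (Dlx3) to 70.3% (Msx2).

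For Hoxc13 the signal of 319 in KOE stood against 1650.2 in WT, which is 5.17-fold lower. Msx2 and Dlx3 were 5.62-fold and 5.18-fold lower, Foxn1 4.35-fold and Lef1 3.80-fold lower. The largest difference was again that of Shh, 12.7-fold, whereas its weaker probe set, with 33.8 in KOE and 48.9 in WT, was 1.45-fold lower and not called. The weaker probe set of Msx2 was not called either, at 1.42-fold lower. Msx1 was lower at both probe sets in this comparison, by 2.90-fold and 4.00-fold. Ovol1 was 1.63-fold lower, with 1008 in KOE and 1648 in WT, and 2.49-fold lower at the weaker probe set. Gata3 and Sostdc1 were 1.31 and 1.19 times their WT signals. At the stronger probe set, the KOE signals of Hoxc13, Foxn1, Msx2, Dlx3, Lef1, Shh and Msx1 lay between those of KO and WT, and the ratio of KOE to KO was under 1.5 in the first 5.

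Beside Shh, the hedgehog target Gli1 was lower in KO, and Ptch1 was lower as deposited. Among 14 measured hedgehog pathway genes, 3 were lower in KO vs. WT, 0 were higher, and the median log2 fold change was −0.05 as deposited and 0.02 with signals under 40 set to 40. Gli1, a transcription factor that hedgehog signals induce, had 111 in KO and 292 in WT. Ptch1, the hedgehog receptor and also an induced gene, had 1331 in KO and 2240.0 in WT. Both were called lower, by 1.40 and 0.75 on the log2 scale. Smo, which passes the signal on inside the cell, had 1363 in KO and 1845 in WT and was not called. After scaling to a common median only Gli1 was lower and 4 hedgehog genes were higher. No hedgehog gene was called in KOE vs. KO as deposited, where Gli1 had 160 in KOE and 111 in KO, and Ptch1 had 1624 in KOE and 1331 in KO.

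Of 17 Wnt transducers and targets, KO skin had 3 lower and 2 higher than WT skin, and the median was −0.22. Of all genes that reached the signal limit, 14.5% were lower and 10.9% were higher in KO. The same shares are the background of the hedgehog and BMP counts. Wnt10b, a Wnt ligand of the follicle, had 12.3 in KO and 65.8 in WT, so that the KO signal lay under the limit. Lgr5, a Wnt target and stem cell receptor, had 895 in KO and 1825 in WT. Axin2, a general Wnt target, had 706 in KO and 568 in WT and was not called. The 2 higher genes were Sp5, with 149 in KO and 93.5 in WT, and Lrp4, with 978 in KO and 647 in WT. The Lrp4 ratio was 1.51, just over the limit, and Lrp4 was not called under cyclic loess normalization. No Wnt gene was called in KOE vs. KO as deposited. The lower Lef1 signal stood beside a lower Lgr5 signal, a higher Sp5 signal and an Axin2 signal that was not called.

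Of 18 BMP pathway genes, KO skin had 3 lower and 4 higher than WT skin, with a median of −0.01. Bambi, a decoy receptor of the BMP family, had 340 in KO and 2001 in WT, and 461 in KOE, which resembled the pattern of Foxn1. Bmp8a, a BMP ligand, had 9.70 in KO and 209 in WT, so that the KO signal lay under the limit. The 4 higher genes were a ligand, a receptor and 2 antagonists. The ligand Bmp2 had 2163 in KO and 1272 in WT, and the receptor Bmpr1b had 114 in KO and 64.3 in WT. The BMP antagonist Grem1 had 2015 in KO and 1008 in WT, and Nog had 70.7 in KO and 39.6 in WT. In KOE vs. KO, Nog was called higher with 119 in KOE, and Bmpr1b, a BMP receptor, was called lower with 69.7 in KOE and 114 in KO.

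Of 23 other transcription factors of the hair follicle, KO skin had 9 lower and 3 higher than WT skin, with a median of −0.29. Dlx2, a homeodomain factor of the Dlx family, had 61.4 in KO and 404 in WT. Elf5, an epithelial ETS factor, had 156 in KO and 427 in WT. Ovol2, the relative of Ovol1, was higher, with 555 in KO and 227 in WT. In KOE vs. KO, 2 of the 23 were higher and 1 was lower. Dlx2 had 113 in KOE and 61.4 in KO, Lhx2, a factor of the follicle stem cells, had 2190.4 in KOE and 1217 in KO, and Ovol2 had 346 in KOE and 555 in KO.

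Keratins that the matrix lineages make were lower in KO. Of 12 measured hair shaft keratins, 11 were lower in KO vs. WT, with a median log2 fold change of −7.28 as deposited and −6.57 with signals under 40 set to 40, since 5 of the 12 lay under that limit in KO. Krt34 was one of these, with 5.60 in KO and 14256 in WT. All 8 measured inner root sheath genes were lower, with a median of −7.67, and Krt25 had 51.5 in KO and 31928 in WT. In KOE vs. KO, 3 of the 12 shaft keratins and 4 of the 8 inner root sheath genes were lower and none was higher, and apart from Krt32 these 7 genes had signals under 100 in both pools. Krt25 had 21.4 in KOE and 51.5 in KO. Whether the regulators and the keratins differ in size of change could not be tested with 1 array per group, and signals of different probe sets share no common scale.

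**Figure D3:**
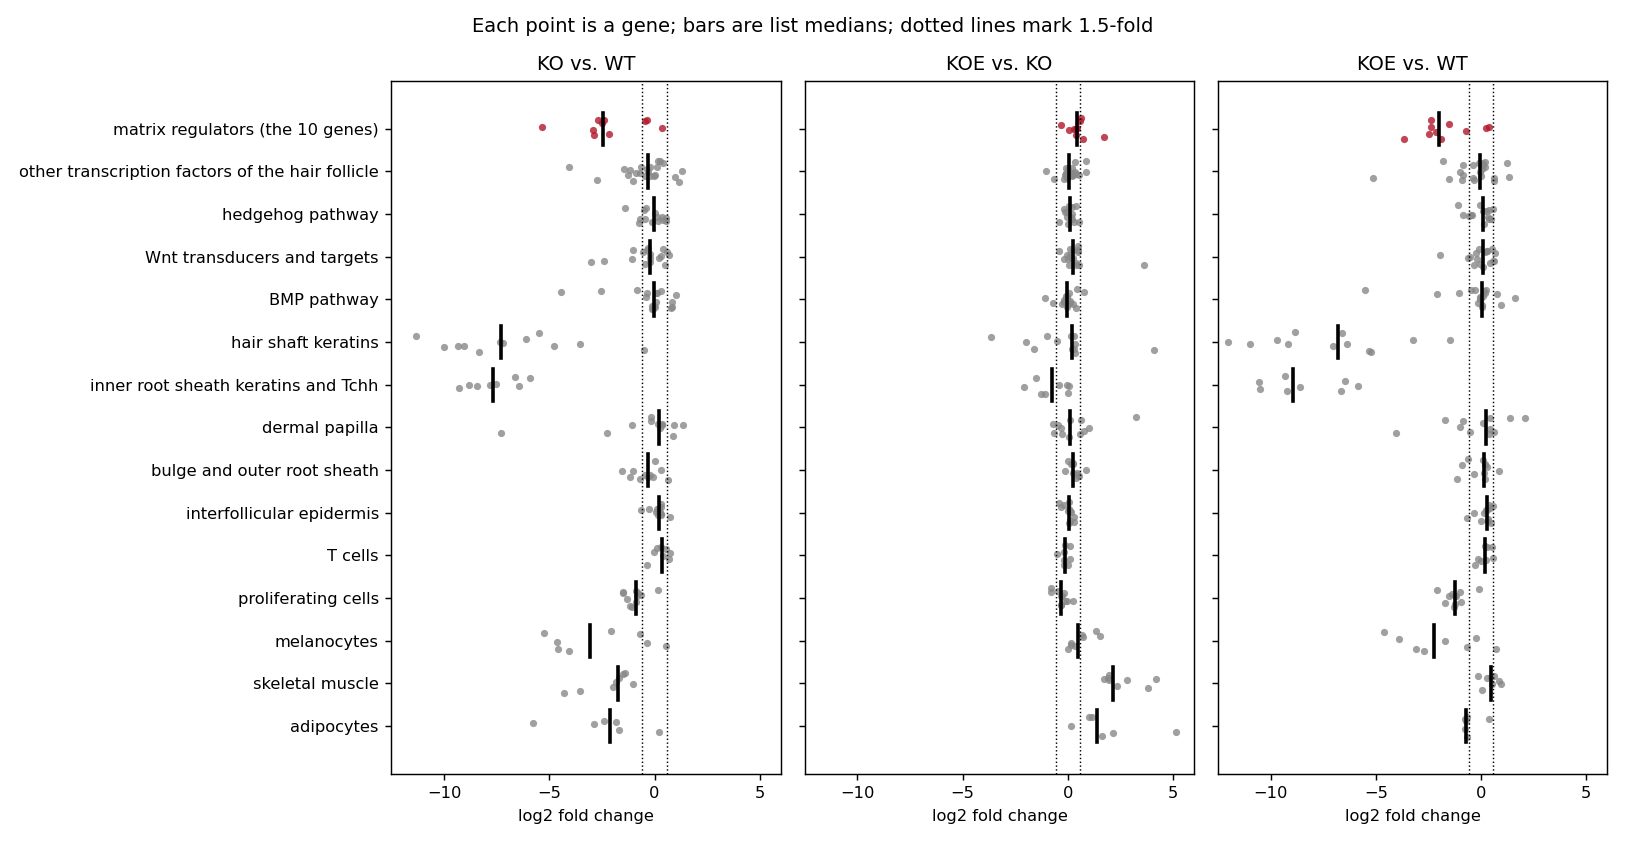
Log2 fold change (horizontal axis) of each measured gene of 15 lists in the comparisons KO vs. WT, KOE vs. KO, KOE vs. WT, with 1 pooled array in each group. Each point is a gene, red for the 10 matrix regulators, black bars are list medians and dotted lines mark 1.5-fold. The regulators have medians of −2.44 in KO vs. WT, 0.43 in KOE vs. KO and −2.02 in KOE vs. WT, and in both comparisons with WT their median lies between those of the 2 keratin lists and those of the hedgehog, Wnt and BMP lists.

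Markers of other cells were examined beside these genes. Of 12 epidermal markers, 1 was lower and 1 was higher in KO vs. WT, and their summed signal was 188154 in KOE, 181346 in KO and 155593 in WT. Sums of this kind follow the strongest probe sets, here for example Krt10 with 36463 in KOE, 33694 in KO and 29571 in WT. Krt2, the marker called lower, adds little to the sum. Of 11 markers of the bulge and outer root sheath, 4 were lower in KO and 1 was higher. Of 8 T cell markers, none was lower in KO and 1 was higher, and the T cell receptor chain Cd3e had 144 in KOE, 145 in KO and 119 in WT, beside the lower signal of Lef1. Of 11 markers of dividing cells, 10 were lower and 0 higher in KO, and Mki67 had 1121 in KOE, 1163 in KO and 3264 in WT. Under the 3 scalings between 7 and 9 of these 11 were lower. Melanocyte markers were lower in KO in 6 of 8, with a summed signal of 4027 in KOE, 2979 in KO and 16211 in WT. In KOE vs. KO 4 of these 8 were higher as deposited, and 2 to 3 were under the 3 scalings. Muscle markers were lower in KO in 8 of 8 and adipocyte markers in 5 of 6, and in KOE vs. KO 8 of 8 and 5 of 6 were higher. The part of these cells in the differences of the matrix regulators was not tested.

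The genes most like a regulator were sought by distance in the 2 log2 fold changes against WT, with signals under 40 set to 40, among 10260 genes with at least 200 in WT. Nearest to Hoxc13 were Prss53, with 205 in KOE, 159 in KO and 1068 in WT, then Zfp618 and Oca2. Nearest to Shh were Slc7a8, Psors1c2 and Adamts20, at larger distances of 0.17 to 0.40. Msx2 and Dlx3 were each among the 3 nearest genes of the other, at a distance of 0.12. Nearest to Gata3 were Dbr1, Itga3 and 1810058I24Rik, and nearest to Ovol1 were Nsd3, Aen and Rpl12, at distances of 0.01 to 0.02. With only 2 fold changes to match, many genes lie this close to a gene that differs little between arrays.

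Calls in KO vs. WT depended little on the way the fold change was formed, and those in KOE vs. KO depended on it more. Under each of 3 scalings 7 of the 10 genes were lower in KO, and between 1 and 2 were higher in KOE than in KO against 3 as deposited. Of all 18193 genes, 1291 to 1696 were lower in KO vs. WT under these scalings, against 2105 as deposited. In KOE vs. KO, 1025 to 1181 of them were higher, against 1585 as deposited. Where a gene was read as the mean log2 signal over its probe sets, Ovol1 was also called lower in KO, with a log2 fold change of −0.74, and Msx2 was called higher in KOE, with 0.65. The same averaging left Msx1 at −1.24 in KO vs. WT.

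**Figure D4:**
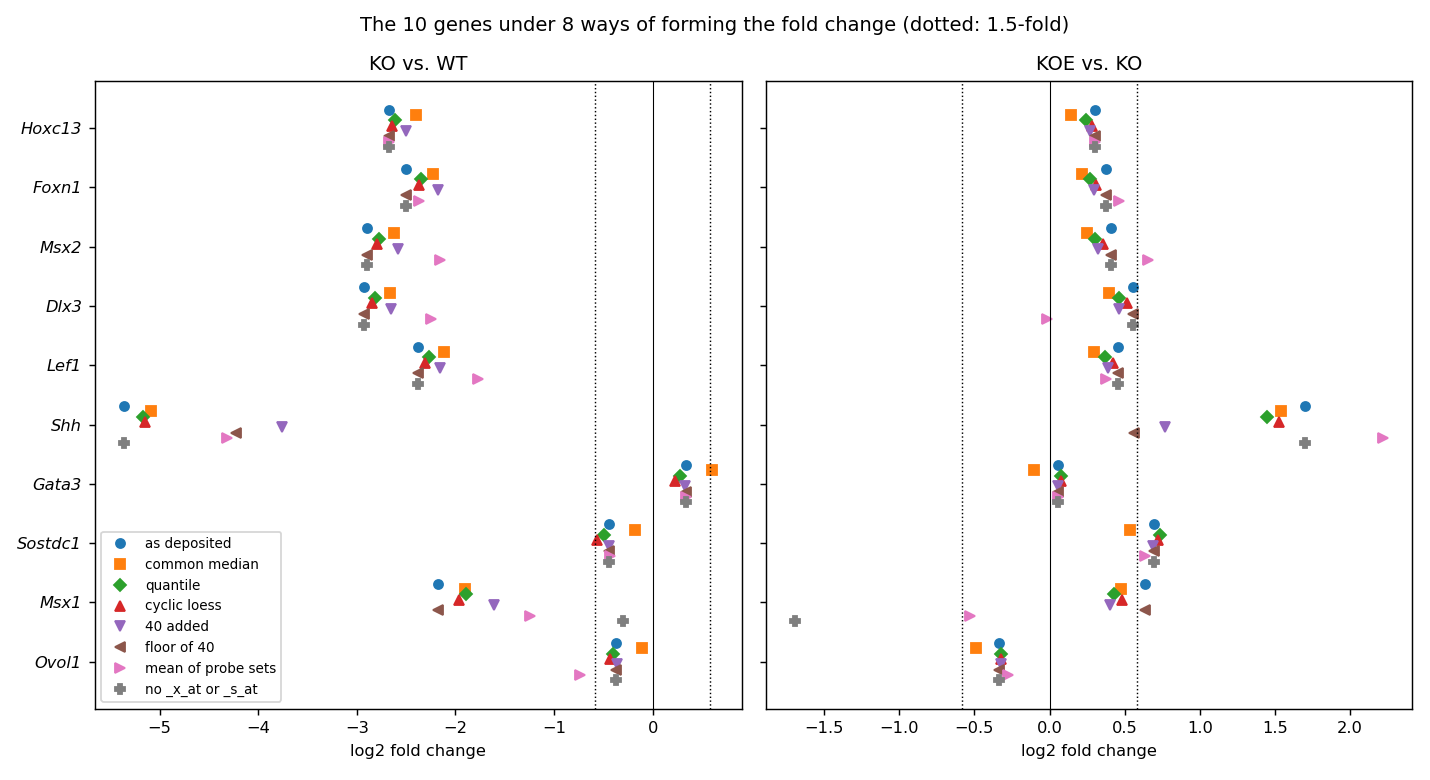
Log2 fold change (horizontal axis) of the 10 genes for KO vs. WT and KOE vs. KO under 8 ways of forming it, 1 marker for each, with dotted lines at 1.5-fold. Values come from 1 array of pooled RNA per group. Hoxc13, Foxn1, Msx2, Dlx3, Lef1 and Shh stay left of the lower line in KO vs. WT under all 8, whereas Msx1 in KOE vs. KO lies between −1.70 and 0.64.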

How the data were processed

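The submitters' protocols state that 250 ng of pooled RNA from back skin, freed of dermal white adipose tissue, was labelled for each of 3 arrays. The authors deposited signal intensity values on a linear scale, made with the Affymetrix Microarray Analysis Suite from Mouse Genome arrays, and the 2% trimmed mean was checked to be 500.0 on each array. Scaling of this kind fixes the total and can shift all ratios of a comparison together. Of 45101 probe sets, 64 controls were left out. The signal reached 40 in 31298 probe sets in KOE, 29390 in KO and 30769 in WT, which limits the precision of weak genes. Detection calls were not analysed here.

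Names came from the platform annotation, updated by gene identifier in RefSeq for 34741 of the 34945 with 1 gene; 932 had several genes and 9160 none named here. Fold changes are ratios of deposited signals and log2 fold changes are their logarithms. The cut-off, a ratio of 1.5 and a signal of at least 40, is that of the methods. No test was made with 1 array per group. The members and the 14 other lists were chosen with earlier results of these data known. Named genes are all members, up to 3 per list with the largest difference in each of KO vs. WT and KOE vs. KO (signals under 40 set to 40), some defining markers, and the 3 genes most like a member. Alternatives changed the signal limit, the fold limit, the scaling (common median, quantile, cyclic loess), an offset or floor of 40 and the probe sets read. The procedure was tested on simulated data with changes planted only in probe sets with at least 200 in WT, so detection of changes at weaker signals was not covered. Python 3.11.15, numpy 2.4.6, pandas 2.3.3, R 4.3.3 and limma 3.58.1 were used.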

Additional observations from a re-analysis of the deposited data

How the results depend on the processing

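In KO vs. WT between 6 and 8 of the 10 genes were lower under the alternatives, against 7, and in KOE vs. WT 7 or 8 were, against 8. The median log2 fold change in KO vs. WT was −1.96 where probe sets were averaged, against −2.44, and 1 gene and 1 probe set (Gata3) were higher in KO after scaling to a common median, against 0. The calls in KOE vs. KO moved more. The 3 genes called higher became 1 with a signal limit of 100, 1 after scaling to a common median and 1 with a fold limit of 2, and the 4 probe sets called higher became 1, 2 and 1 under the same settings. They became 2 where both arrays had to reach 40, with 40 added to every signal and with signals under 40 set to 40. The 2 probe sets called lower became 1 where both arrays had to reach 40, with 40 added and with a fold limit of 2, and 0 with a limit of 100. Without the probe sets whose names mark shared transcripts, 1 gene was lower in KOE, against 0. That gene was Msx1, whose log2 fold change in KOE vs. KO of 0.64 turned to −1.70 without those probe sets and to −0.53 with the mean of its probe sets, because its 2 probe sets lie in opposite directions. The cause of the other changes was not tested. No paired analysis was possible because each group has 1 array. Leaving out a replicate was not possible for the same reason. Signals near 40, as those of Shh and Msx1 in KO and KOE, limit what can be read from their ratios.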

Other observations

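Dermal papilla markers, from the fibroblasts below the matrix that signal to it, lay in both directions. Of 12 measured, 2 were lower and 3 were higher in KO vs. WT. Corin, a protease of the papilla, had 21.4 in KOE, 2.24 in KO and 348 in WT, and Vcan, a proteoglycan, had 493 in KOE, 469 in KO and 999 in WT. Sox2, a factor of some papillae, was higher, with 175 in KOE, 104 in KO and 40.9 in WT, and Fgf10, a growth factor, was called higher in KOE vs. KO, with 102 in KOE, 50.8 in KO and 39.2 in WT. In KO vs. WT it was not called as deposited and was called higher under each of the 3 scalings. The only hair shaft keratin not called lower in KO was Krt32, with 831 in KOE, 1631 in KO and 2323 in WT, which was called lower in KOE against both.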
